A study of Mus musculus with 24 samples.

Results

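The genes described are 10 markers of disease-associated microglia, a state that microglia, the resident macrophages of the brain, enter around amyloid plaques, myelin debris and dying neurons. They were chosen by name (Cst7, Itgax, Clec7a, Axl, Spp1, Cd9, Cd63, Cd68, Gpnmb and Lgals3), with earlier results of these data known. Because Clec7a has 2 gene IDs, they make up 11 of the 43346 gene IDs in the deposited count table. Poly-A RNA from the cortex of 24 C57BL/6 mice had been sequenced in bulk, with 1 library per mouse. All 24 mice carried Cx3cr1CreER/+, a Cre recombinase that tamoxifen activates and that the Cx3cr1 promoter drives in microglia and related macrophages. They also carried either TREM2-WT+/+ or TREM2-R47H+/+, and were given tamoxifen to switch on TREM2 in microglia (Induced) or corn oil (Control). The 4 groups of 6 mice are called WT_control, WT_induced, R47H_control and R47H_induced. The series text gives equal numbers of males and females in each group. The sources used here give neither the sex of each mouse nor its age. All induced mice had received tamoxifen and all control mice corn oil, and no mice lacking Cre but given tamoxifen were analysed here, so effects of the drug and of induction cannot be told apart.

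TREM2 is a microglial surface receptor for lipids and lipoproteins that signals through the adaptor TYROBP, and R47H is a coding variant linked to the risk of Alzheimer's disease. In mouse models of amyloid disease, microglia that lack TREM2 fail to switch on most of the disease-associated programme, whose genes encode phagocytic receptors, secreted proteins and proteins of the lysosome. Several of the genes are not exclusive to microglia: Cd9, Cd63 and Axl are also transcribed by other brain cells, and in bulk cortex fewer cells of a type and less RNA per cell cannot be told apart.

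Total counts ran from 27933505 to 56082520 per library. Levels are CPM, the usual depth-scaled counts (here with TMM-scaled library totals), and fold changes are on the log2 scale with the standard error (SE) of the edgeR fit. A gene was called at a Benjamini-Hochberg adjusted p below 0.05 over the 19678 genes that passed the filter on low counts. The summed level of 12 markers of cortical neurons lay between 6398 and 7346 CPM in every library, and none of them was at 0 in any group. The summed level of 16 markers of homeostatic microglia lay between 346 and 493 CPM, with the highest value in WT_induced replicate 6 and the next, in R47H_control, at 413. In WT mice the mean level of mouse Trem2 was 6.40 ± 0.37 CPM without and 6.61 ± 1.43 with induction, and in R47H mice 7.89 ± 0.97 without and 6.62 ± 0.53 with it (SD, n = 6). The sources used here do not say whether construct reads count as mouse Trem2, so its level is no check of the group labels. The library of WT_induced replicate 6 stood apart from the others in immune genes, and most results that rest on it are given with and without it.

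Of the 11 gene IDs, 8 passed the filter on low counts. Cst7 and both Clec7a IDs did not, with totals of 211, 183 and 42 counts over the 24 libraries, and their fold changes come from a fit without that filter. Per kilobase of gene length, the mean level over the 24 libraries was highest for Cd63 (22.4 CPM per kb), Cd9 (11.8), Axl (8.40), Spp1 (7.13) and Cd68 (3.89). It was lower for Gpnmb (0.874), Lgals3 (0.243), Cst7 (0.224), Clec7a ENSMUSG00000079293 (0.0822), Itgax (0.0791) and Clec7a ENSMUSG00000102040 (0.0580). Cd63 stood above Cd9 and Cd9 above Axl in 24 of 24 libraries with no overlap of their ranges, and so did Cd68 above Gpnmb and Gpnmb above Lgals3. These orders rest on the lengths in the deposited table. For Cd63 that length is 1031 bases, where GENCODE vM21 has 3682 exon bases, and for Gpnmb it is 3798 against 6514. Levels per kilobase with the longer lengths were not computed, so the first place of Cd63 holds for the deposited length only. Axl and Spp1 overlapped, with Axl the higher in 20 of 24 libraries. Lgals3 and Cst7 could not be ordered, with Lgals3 the higher in 12 of 24 libraries. Cst7 was above Clec7a ENSMUSG00000079293 in 23 of 24, although their ranges overlapped. Clec7a ENSMUSG00000079293 was above Itgax in 12 of 24, and Itgax above Clec7a ENSMUSG00000102040 in 15 of 24. Within groups, the SD of log2 levels (pseudocount 0.1 CPM) was smallest for Axl, at 0.09, and largest for Itgax, at 0.85, or 0.47 without WT_induced replicate 6.

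**Figure D1:**
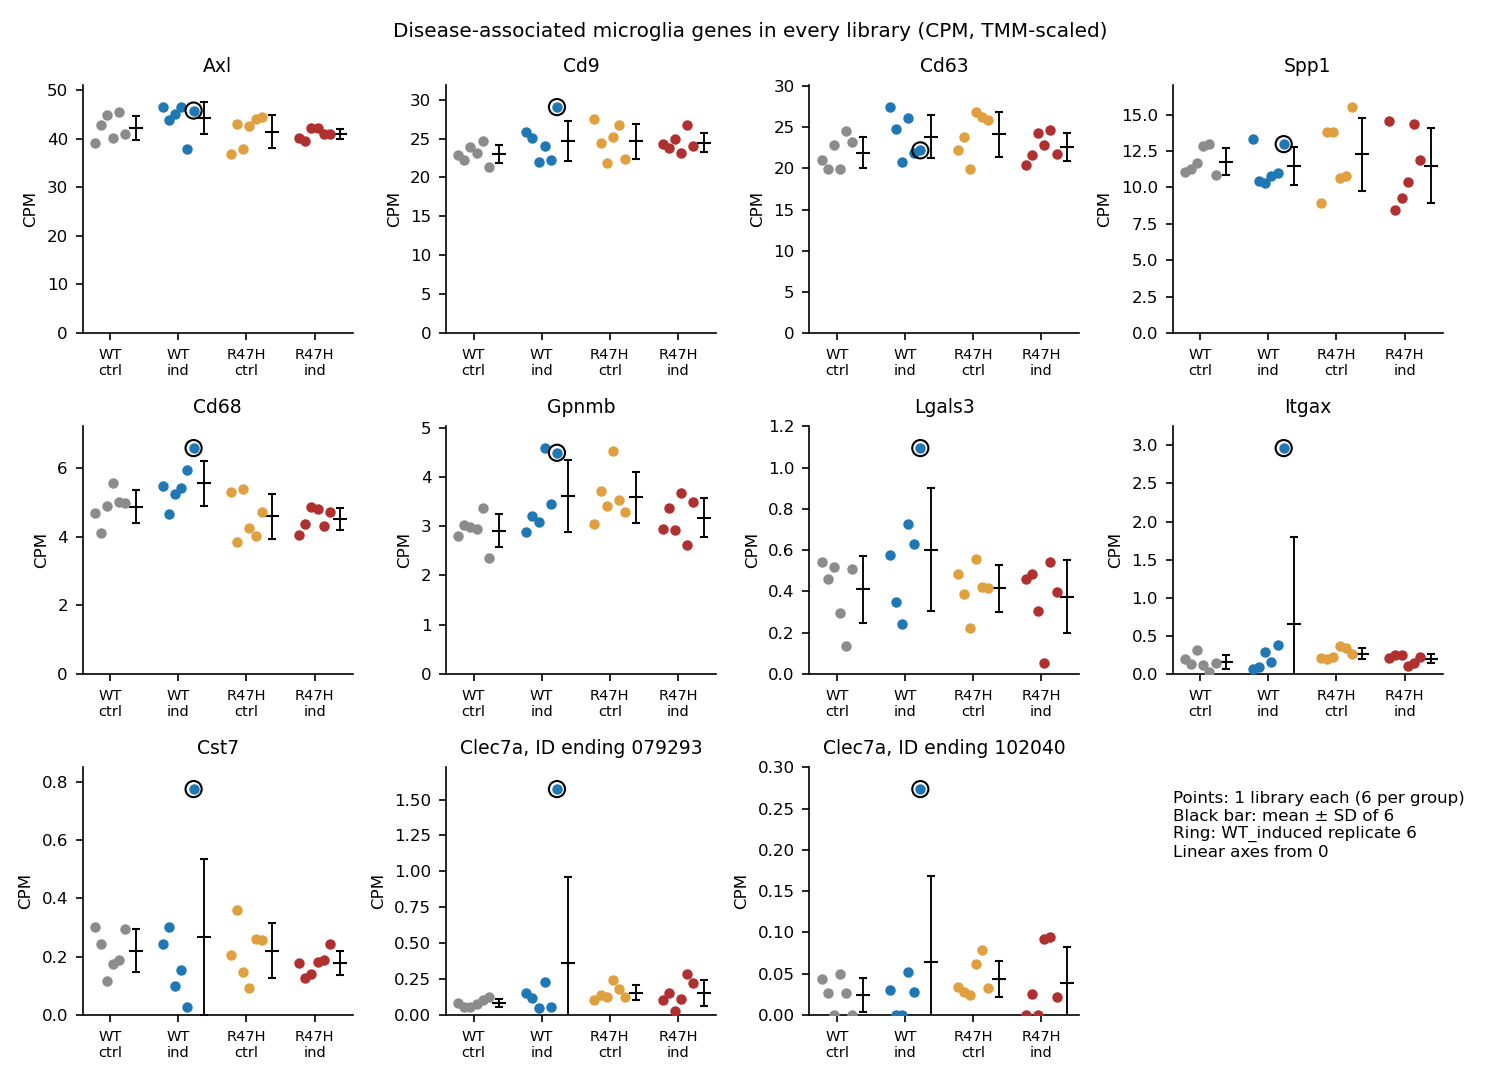
CPM of each of the 11 gene IDs in the 24 libraries, 1 panel per ID, with points for mice by group and the mean and SD of 6 mice beside them (SD bars that would pass below 0 stop at 0). Itgax, both Clec7a IDs and Cst7 each have a single high point, WT_induced replicate 6, at 2.96, 1.57, 0.274 and 0.775 CPM, while the abundant members overlap across all 4 groups.

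Across the 5 comparisons, 0 of the 8 tested members were called. The tested background was 0% of genes called for the induction in WT mice, 0% for the induction in R47H mice and 0% for the difference of these inductions. It was 5.8% for R47H against WT in induced mice (2.59% higher and 3.22% lower) and 5.74% for R47H against WT in control mice (2.69% higher and 3.04% lower). The genotypes thus differed about as much without induction as with it. Effects of the R47H variant and of other differences between R47H and WT mice cannot be told apart in these comparisons. At an unadjusted p below 0.05 the members numbered 3, 0, 2, 3 and 1 of 8 in the same order, beside 7.85%, 5.11%, 7.94%, 20.1% and 20.5% of all tested genes. Without WT_induced replicate 6 they numbered 1, 0, 2, 1 and 1 of 8. All genes then numbered 1142, 1095, 1445, 3725 and 4222 of 19811. limma-voom called 0 members in each comparison, and DESeq2 called 1, Cd68, in R47H against WT in induced mice. In that comparison limma-voom called 5.56% and DESeq2 7.66% of all tested genes. In no pair of groups with the same genotype or the same treatment were the CPM ranges of a member separate. Among all tested genes they were separate for 0.234% (induction in WT), 0.34% (induction in R47H), 3.25% (genotype in induced mice) and 3.18% (genotype in control mice).

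The promoters of 4 members are shown because Itgax, Clec7a and Cst7 were high together in 1 library and Cd68 came closest to the threshold. Each is the RefSeq window of GRCm38.p6 from 250 bases before to 50 bases after the gene's start, read along the gene. Capitals mark matches on either strand to GAGGAA, the core of the motif of the myeloid factor PU.1, or to TGANTCA. The latter covers the AP-1 motif, TGACTCA or TGAGTCA, but allows any base in the middle. The windows lie at chr7:128129300-128129599 (Itgax, plus strand), chr6:129472730-129473029 (Clec7a, minus strand), chr2:150570165-150570464 (Cst7, plus strand) and chr11:69666121-69666420 (Cd68, minus strand).
Itgax: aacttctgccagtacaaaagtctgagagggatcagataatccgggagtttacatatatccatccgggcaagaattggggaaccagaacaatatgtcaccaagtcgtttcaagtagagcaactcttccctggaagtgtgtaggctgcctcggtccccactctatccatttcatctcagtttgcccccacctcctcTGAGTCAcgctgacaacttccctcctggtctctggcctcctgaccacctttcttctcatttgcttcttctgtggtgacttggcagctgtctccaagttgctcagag
Clec7a: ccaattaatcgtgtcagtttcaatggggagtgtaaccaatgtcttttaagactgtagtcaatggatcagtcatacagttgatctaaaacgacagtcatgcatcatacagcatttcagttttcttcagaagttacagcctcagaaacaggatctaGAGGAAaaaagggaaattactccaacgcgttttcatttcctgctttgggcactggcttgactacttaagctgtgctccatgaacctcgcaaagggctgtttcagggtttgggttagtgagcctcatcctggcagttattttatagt
Cst7: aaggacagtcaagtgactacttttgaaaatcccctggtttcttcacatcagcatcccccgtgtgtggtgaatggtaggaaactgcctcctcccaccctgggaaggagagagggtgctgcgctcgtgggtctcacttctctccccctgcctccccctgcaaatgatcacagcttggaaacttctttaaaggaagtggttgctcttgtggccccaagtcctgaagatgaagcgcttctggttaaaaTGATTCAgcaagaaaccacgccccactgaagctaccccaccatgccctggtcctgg
Cd68: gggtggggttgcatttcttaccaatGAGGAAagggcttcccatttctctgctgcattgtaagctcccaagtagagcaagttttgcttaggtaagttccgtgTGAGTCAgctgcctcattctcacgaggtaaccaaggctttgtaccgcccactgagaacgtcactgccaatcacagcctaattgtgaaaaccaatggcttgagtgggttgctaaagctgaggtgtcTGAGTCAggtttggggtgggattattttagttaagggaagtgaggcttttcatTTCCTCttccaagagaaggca
The Itgax window held an AP-1 match 56 bases before the start. The Cst7 window held TGATTCA 6 bases before the start, which matches TGANTCA only through its free middle base. The Clec7a window held a GAGGAA match 96 bases before the start. The Cd68 window held AP-1 matches 149 and 24 bases before the start, and GAGGAA matches 225 bases before and 30 bases after it. Among the windows of the 10 members, 5 held GAGGAA (Spp1, Clec7a, Axl, Cd63 and Cd68), beside 28.3% of 32851 windows of all genes. TGANTCA was in 4 (Cst7, Gpnmb, Itgax and Cd68), beside 7.81%. The E-box CATGTG was in 1 (Cd9), beside 14.2%, and the E-box CACGTG in 0, beside 7.15%. No motif letters overlapped another motif's in these windows, and a match is a description of sequence, not of binding.

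Among the surface receptors, Itgax (ENSMUSG00000030789, chromosome 7, 128129547 to 128150656, mm10) encodes CD11c, an integrin chain of disease-associated microglia and of dendritic cells. Itgax ran from 0.0269 to 0.318 CPM in WT_control (median 0.142) and from 0.0608 to 2.96 CPM in WT_induced (median 0.225), while R47H_control spanned 0.194 to 0.370 CPM (median 0.240) and R47H_induced 0.110 to 0.255 CPM (median 0.217). A single library, WT_induced replicate 6, stood far above the rest, and without it the 4 groups overlapped. That library held 130 Itgax counts, or 2.96 CPM (exact Poisson 95% interval 2.48 to 3.52, counting error only), against a highest value of 0.382 CPM in the other 23. The log2 fold change of induced against control in WT mice was 2.09 (SE 0.72, edgeR adjusted p = 0.492), and 0.33 (SE 0.42, adjusted p = 0.978) without WT_induced replicate 6. The R47H mice gave -0.44 (SE 0.80, edgeR adjusted p = 0.9995). The difference of inductions came to -2.53 (SE 1.08, adjusted p = 0.613), or -0.77 (SE 0.56, adjusted p = 0.822) without that library. R47H against WT in induced mice gave -1.79 (SE 0.70, edgeR adjusted p = 0.144), and -0.03 (SE 0.40) without it.

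In control mice, where WT_induced replicate 6 plays no part in the means, Itgax was 0.57 higher in R47H than in WT mice as a difference of mean log2(CPM + 0.1) (two-sided exact permutation p = 0.0411, or 0.0541 with a pseudocount of 1). The edgeR value was 0.75 (SE 0.82, adjusted p = 0.664), and it was -0.13 (SE 0.89) once the percentage of counts from 3 rRNA-like genes entered as a covariate. That percentage ran from 11.5% to 20.1% in WT_control and from 17.1% to 24.4% in R47H_control, and its part in the result was not tested beyond that fit.

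Clec7a encodes Dectin-1, a lectin receptor for fungal beta-glucans. Its ID ENSMUSG00000079293 (chromosome 6, 129461591 to 129472777) is annotated as a polymorphic pseudogene in the deposited table, and ENSMUSG00000102040 (129463041 to 129472685), annotated as protein coding, lies inside its span. Reads of the shared exons can be split or dropped between them, so both levels are uncertain. ENSMUSG00000079293 ran from 0.0544 to 0.127 CPM in WT_control (median 0.0804) and from 0.0489 to 1.57 CPM in WT_induced (median 0.134), while R47H_control spanned 0.104 to 0.247 CPM (median 0.134) and R47H_induced 0.0279 to 0.284 CPM (median 0.131). WT_induced replicate 6, with 69 counts, was again the high library, and the other 23 reached at most 0.284 CPM. ENSMUSG00000102040 had at most 12 counts in a library, in that same one, and 5 or fewer in each of the others. In the fit without a filter, the first ID's induction in WT mice was 2.08 (SE 0.71, edgeR adjusted p = 0.646), and 0.47 (SE 0.47) without WT_induced replicate 6. In R47H mice it was 0.00 (SE 0.83). R47H against WT in control mice gave 0.82 (SE 0.81, edgeR adjusted p = 0.688), and a difference of 0.45 in mean log2(CPM + 0.1) by the two-sided exact permutation test (p = 0.0130).

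Axl (ENSMUSG00000002602, chromosome 7, 25757273 to 25788705) encodes a receptor tyrosine kinase that binds GAS6 on dying cells. Axl ran from 39.3 to 45.4 CPM in WT_control (median 42.0) and from 38.0 to 46.6 CPM in WT_induced (median 45.5), while R47H_control spanned 36.8 to 44.6 CPM (median 42.8) and R47H_induced 39.6 to 42.2 CPM (median 41.1). The groups overlapped throughout, and WT_induced replicate 5, at 38.0 CPM, lay apart below the other 5 of its group. The induction was 0.07 (SE 0.05, edgeR adjusted p = 0.814) in WT and -0.02 (SE 0.05) in R47H mice. R47H against WT in induced mice gave -0.11 (SE 0.05, edgeR adjusted p = 0.218), and -0.15 (adjusted p = 0.0531) without WT_induced replicate 5.

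Among the secreted proteins, Spp1 (ENSMUSG00000029304, chromosome 5, 104435118 to 104441050) encodes osteopontin, a phosphoprotein ligand of integrins. Its medians were 11.5, 10.9, 12.3 and 11.2 CPM, in the order WT_control, WT_induced, R47H_control, R47H_induced, within an overall range of 8.46 to 15.5 CPM. Its 5 log2 fold changes lay between -0.10 (SE 0.13) and 0.06 (SE 0.13). The predicted gene Gm42793 overlaps 18.75% of its exon bases on the same strand. Lgals3 (ENSMUSG00000050335, chromosome 14, 47367751 to 47386160) encodes galectin-3, a beta-galactoside-binding lectin that marks damaged lysosomes. Its medians were 0.485, 0.603, 0.419 and 0.430 CPM in the same order, and it was highest, at 1.09 CPM, in WT_induced replicate 6. The induction of Lgals3 was 0.55 (SE 0.36, edgeR adjusted p = 0.777) in WT mice, or 0.27 (SE 0.36) without that library, against -0.16 (SE 0.39) in R47H mice. R47H against WT in induced mice gave -0.72 (SE 0.37, edgeR adjusted p = 0.281), or -0.45 (SE 0.37) without it.

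Cd9 (ENSMUSG00000030342, chromosome 6, 125460266 to 125494791) and Cd63 (ENSMUSG00000025351, chromosome 10, 128908919 to 128912816) encode tetraspanins, membrane organisers of the cell surface and of late endosomes and exosomes. Cd9 medians were 23.004, 24.6, 24.8 and 24.2 CPM, in the order WT_control, WT_induced, R47H_control, R47H_induced, within 21.3 to 29.0 CPM. Cd63 medians were 21.9, 23.5, 24.8 and 22.3 CPM in the same order, within 19.9 to 27.5 CPM. Both varied less among mice than the rarer members, and no group stood apart. The Cd9 fold changes lay between -0.11 (SE 0.09, the difference of inductions) and 0.10 (SE 0.06, the induction in WT). Those of Cd63 lay between -0.22 (SE 0.11, the difference of inductions, edgeR adjusted p = 0.632) and 0.14 (SE 0.08, R47H against WT in control mice). The gene Gm26728 overlaps 10.7% of the Cd9 exon bases on the opposite strand.

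Among the lysosomal genes, Cd68 (ENSMUSG00000018774, chromosome 11, 69664213 to 69666153) encodes macrosialin, a glycoprotein of macrophage endosomes and lysosomes. Cd68 ran from 4.11 to 5.57 CPM in WT_control (median 4.95) and from 4.67 to 6.59 CPM in WT_induced (median 5.44), while R47H_control spanned 3.85 to 5.41 CPM (median 4.49) and R47H_induced 4.06 to 4.86 CPM (median 4.56). In induced mice 5 of the 6 WT libraries lay above all 6 R47H libraries, and WT_induced replicate 2, at 4.67 CPM, lay among them. R47H against WT in induced mice gave -0.29 (SE 0.09) with an edgeR adjusted p of 0.0533, short of the threshold. DESeq2 gave -0.29 with an adjusted p of 0.0351, limma-voom gave -0.28 with 0.0625, and the two-sided exact permutation test over 924 assignments, which can reach 0.00216, gave p = 0.00866.

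The call for Cd68 in induced mice moved with single libraries. Without WT_induced replicate 6, which held the highest value, the difference was -0.24 (SE 0.09, edgeR adjusted p = 0.136; two-sided exact permutation p = 0.0152). Without WT_induced replicate 2 it was -0.34 (edgeR adjusted p = 0.0283). Leaving out WT_control replicate 2 or R47H_control replicate 1, 2 or 3, which do not enter the contrast, gave adjusted p values of 0.0469, 0.0490, 0.0457 and 0.0462. With the homeostatic microglia list as a covariate it was -0.26 (SE 0.09, edgeR adjusted p = 0.0977). The 18 general microglia and myeloid markers had a summed level of 236 to 520 CPM in WT_induced, where the second highest library was at 275, and of 237 to 268 in R47H_induced, none of them at 0, and their part in the result was not tested. Of these, 17 of 18 were lower in R47H_induced (median log2 -0.32), and 13 of 18 without WT_induced replicate 6 (median -0.04). The induction of Cd68 was 0.19 (SE 0.09, edgeR adjusted p = 0.621) in WT mice. In R47H mice it was -0.02 (SE 0.09), and the inductions differed by -0.21 (SE 0.13, adjusted p = 0.726).

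Gpnmb (ENSMUSG00000029816, chromosome 6, 49036518 to 49058182) encodes a transmembrane glycoprotein of lysosomes and melanosomes. Gpnmb ran from 2.35 to 3.36 CPM in WT_control (median 2.96) and from 2.89 to 4.59 CPM in WT_induced (median 3.32), while R47H_control spanned 3.04 to 4.53 CPM (median 3.47) and R47H_induced 2.63 to 3.67 CPM (median 3.16). Its upper values came from WT_induced replicates 4 and 6 and R47H_control replicate 4, and all groups overlapped. R47H against WT in control mice gave 0.30 (SE 0.12, edgeR adjusted p = 0.134), a difference of 0.29 with a two-sided exact permutation p of 0.0108, and 0.19 (SE 0.13, edgeR adjusted p = 0.579) after adjustment for the rRNA-like percentage. The induction was 0.32 (SE 0.12, edgeR adjusted p = 0.511) in WT and -0.17 (SE 0.12) in R47H mice, opposite in sign. The difference of inductions was -0.49 (SE 0.17, edgeR adjusted p = 0.552), and -0.42 (SE 0.16, adjusted p = 0.579) without WT_induced replicate 6.

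Cst7 (ENSMUSG00000068129, chromosome 2, 150570415 to 150578944) encodes cystatin F, an inhibitor of lysosomal cysteine proteases. Cst7 ran from 0.116 to 0.302 CPM in WT_control (median 0.217) and from 0.0273 to 0.775 CPM in WT_induced (median 0.199), while R47H_control spanned 0.0925 to 0.360 CPM (median 0.232) and R47H_induced 0.127 to 0.243 CPM (median 0.181). WT_induced held both its highest library, replicate 6 with 34 counts, and its lowest, replicate 5 with 1 count. The induction in WT mice, fitted without a filter on low counts, was 0.29 (SE 0.41, edgeR adjusted p = 0.935), and -0.42 (SE 0.38, adjusted p = 0.866) without WT_induced replicate 6. In R47H mice it was -0.30 (SE 0.45).

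**Figure D2:**
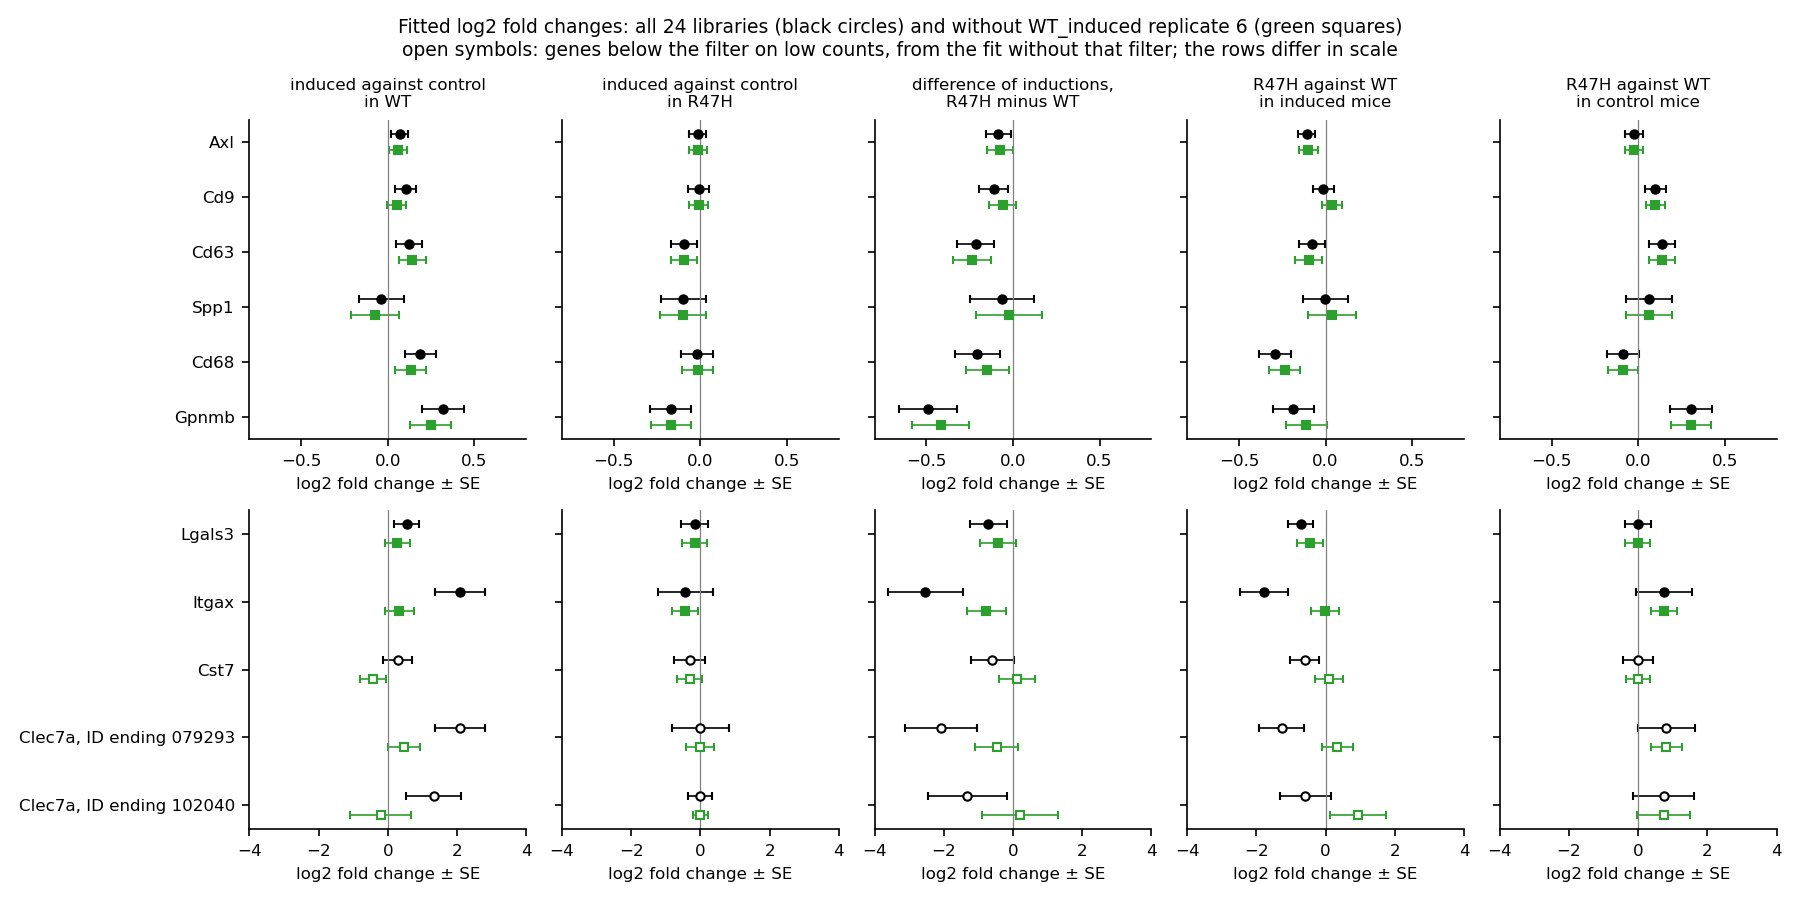
Fitted log2 fold changes (x axis, ± SE) of the 11 gene IDs (y axis) in the 5 comparisons, 1 column each, with the abundant members above and the low members, on a wider scale, below. Black circles are fits on all 24 libraries and green squares fits without WT_induced replicate 6: for Itgax the induction in WT goes from 2.09 to 0.33, while Gpnmb goes from 0.32 to 0.25.

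Set side by side, 7 of the 8 tested members had a positive log2 fold change for the induction in WT mice and 0 of 8 in R47H mice, with medians of 0.155 and -0.0967 beside 0.0015 and 0.00389 for all tested genes. Of all tested genes 50.9% and 52.7% were positive. In the fit without a filter, which holds all 11 gene IDs, 10 of 11 were positive in WT (median 0.287) and 1 of 11 in R47H mice. Without WT_induced replicate 6 the filtered fit again gave 7 and 0 of 8 (medians 0.137 and -0.0967), and the unfiltered fit 8 of 11 in WT mice (median 0.132) and 0 of 11 in R47H mice. That library does not enter the induction in R47H mice, so the counts there could hardly change. Leaving out R47H_control replicate 1 or 5 or R47H_induced replicate 4, which do enter it, gave 2 of 9 positive each time. No other library left out gave more. For R47H against WT, 0 of 8 were positive in induced mice (median -0.148) and 5 of 8 in control mice (median 0.0799), beside medians of 0.00163 and -0.00117 for all tested genes. Of all tested genes 50.5% and 49.5% were positive there. Without WT_induced replicate 6, 2 of 8 were positive in induced mice (median -0.0986). The unfiltered fit gave 0 of 11 (median -0.292) with that library and 5 of 11 (median -0.026) without it. These comparisons share their groups, so the counts are not independent. With library totals in place of TMM the positive members numbered 7 and 3 of 8 for the inductions in WT and R47H mice, and 2 and 5 of 8 for R47H against WT in induced and control mice. All genes shifted in that setting, with 30.3%, 75.5%, 62.4% and 29.6% positive in the same order. With the rRNA-like percentage as a covariate the positive members numbered 7, 4, 2 and 4 of 8, beside 50.5%, 52.5%, 50.4% and 49.1% of all genes. With the homeostatic microglia list as a covariate they numbered 7, 4, 2 and 5 of 8, beside 49.9%, 51.3%, 50.9% and 49.4%.

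WT_induced replicate 6 had the highest level of all 24 libraries for 7 of the 11 gene IDs (Itgax, both Clec7a IDs, Cst7, Lgals3, Cd9 and Cd68). Of the tested genes, which leave out Cst7 and both Clec7a IDs, 9.06% were highest in that library. Against the mean of the other 5 mice of its group, Itgax was 15.0 times as high there, Clec7a ENSMUSG00000079293 13.004 times, Cst7 4.69 times and Lgals3 2.17 times. Gpnmb (1.31 times), Cd68 (1.23), Cd9 (1.22), Spp1 (1.16), Axl (1.04) and Cd63 (0.917) differed far less. Among all tested genes 2.34% were at least 2 times and 0.417% at least 5 times the mean of those 5 mice. The library separated the low receptors and the protease inhibitor from the abundant members of the same marker set.

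Other immune genes moved with Itgax and Clec7a in that library. The 7 genes of MHC class II presentation summed to 339 CPM there and to 13.3 to 31.0 CPM in the other 5 WT_induced libraries. Across the remaining groups they summed to 15.5 to 19.97 CPM in WT_control, 19.6 to 25.9 in R47H_control and 18.0 to 22.7 in R47H_induced. Their most abundant gene, Cd74, the invariant chain, reached 152 CPM. The 19 markers of blood leukocytes and dendritic cells summed to 57.1 CPM there, to 18.3 to 21.9 in the rest of its group, to 18.7 to 22.3 in WT_control, to 16.8 to 19.4 in R47H_control and to 15.9 to 18.97 in R47H_induced, with 13 of 19 highest in that library. Cd3d, a subunit of the T-cell receptor complex, was at 1.28 CPM there and at 0 in the other 5, and Ccr2, a chemokine receptor of monocytes, was at 8.64 against a mean of 0.340. All 18 general myeloid markers were highest there, with a summed level 2.03 times the mean of the other 5. The 16 homeostatic microglia markers summed to 493 CPM, 1.35 times the mean of the other 5, with 10 of 16 highest there. The 11 markers of border-associated macrophages summed to 19.8 CPM, the lowest of the 24 libraries. The 15 interferon response genes were all highest in that library and summed to 288 CPM, against 84.6 to 114 in the other 5, 81.0 to 94.4 in WT_control, 75.1 to 94.99 in R47H_control and, in R47H_induced, 75.1 to 95.9. The 8 choroid plexus markers summed to 20.7 CPM, against 44.0 to 261 in the other 5, but reached values as low as 19.6 CPM in WT_control and 20.5 CPM in R47H_induced. Of the 30 other genes of the disease-associated programme, 17 were highest in that library. Among them Cybb was 10.8 times, Lyz2 9.06 times, Cd52 8.11 times and B2m 4.34 times the mean of the other 5, while the most abundant, Apoe, was at 766 CPM against a mean of 909. The part of these genes and cells in the Itgax and Clec7a levels was not tested.

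**Figure D3:**
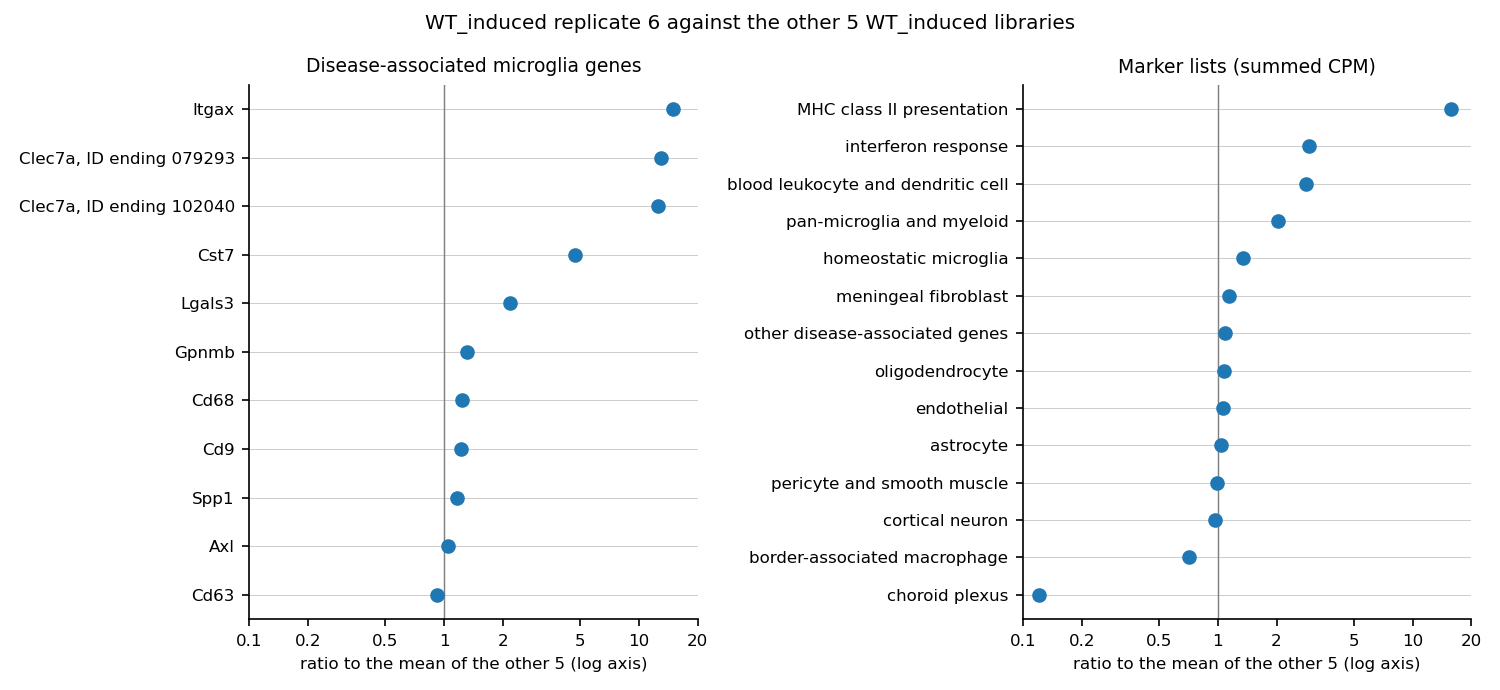
Level in WT_induced replicate 6 divided by the mean of the other 5 WT_induced libraries (log axis) for the 11 gene IDs and for the summed level of each marker list. Itgax (15.0) and Clec7a ENSMUSG00000079293 (13.004) lie beside MHC class II presentation (15.7), while Axl (1.04) and Cd63 (0.917) lie near 1; a list's ratio is one of sums, led by its most abundant genes.

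From mouse to mouse, no shared rise and fall of all members was seen. Counting noise can pull rho toward 0 for Cst7, Clec7a ENSMUSG00000079293, Itgax and Lgals3, with 211, 183, 308 and 415 counts over the 24 libraries. The absence of a shared rise and fall therefore cannot be concluded. Over 45 pairs of the 10 gene IDs with a mean of at least 5 counts, and after each group's mean was subtracted, the median Spearman rho was 0.093, and -0.0099 without WT_induced replicate 6. No pair passed adjustment over the 45. Axl and Cd63 had the highest rho, 0.65 (permutation p = 0.00151, adjusted 0.0679), with a Pearson r of 0.63 (permutation p = 0.00428, adjusted 0.193). That r stayed at 0.63 without the 2 libraries farthest from the median of Axl. They were chosen on Axl alone, and the libraries farthest out for Cd63 stayed in. Itgax and Lgals3 followed with a rho of 0.54 (permutation p = 0.00845, adjusted 0.190) and an r of 0.52 (permutation p = 0.0105, adjusted 0.213), or an r of 0.54 without the 2 farthest from the median of Itgax. Without WT_induced replicate 6 that pair had a rho of 0.37 (permutation p = 0.110, adjusted 0.550) and an r of 0.42 (permutation p = 0.0568, adjusted 0.433). Clec7a ENSMUSG00000079293 and Cd63 then came second to Axl and Cd63, with a rho of 0.62 (permutation p = 0.00536, adjusted 0.121) and an r of 0.48 (permutation p = 0.0256, adjusted 0.364), beside a rho of 0.38 and an r of 0.12 with all 24 libraries.

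**Figure D4:**
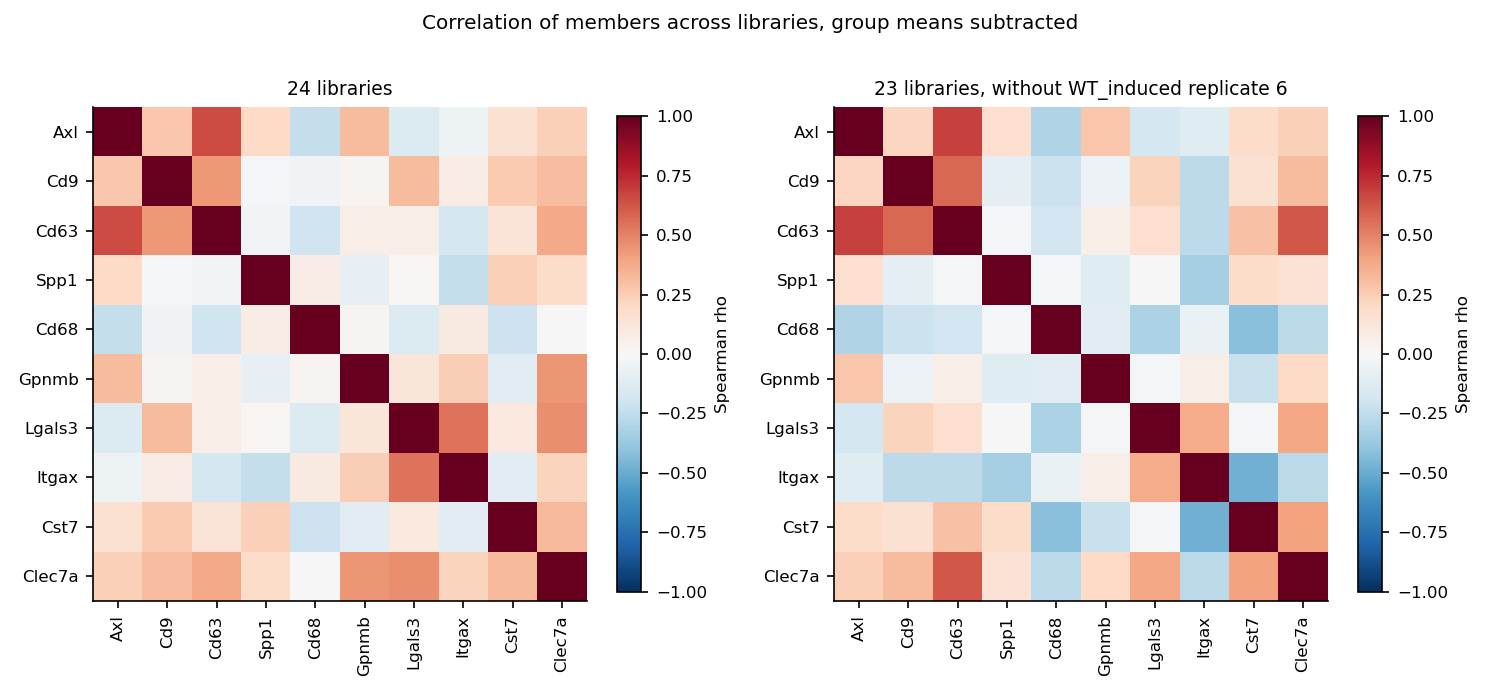
Spearman rho between members over libraries after each group's mean was subtracted, with all 24 libraries and without WT_induced replicate 6. Axl and Cd63 (0.65) are the highest pair with all libraries, and the median over the 45 pairs is 0.093.

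Outside the members, the tested genes whose group-centred levels were most alike over the 24 libraries differed from member to member, and these values are descriptions from 1 set of libraries. For Clec7a ENSMUSG00000079293 they were H2-Eb1 (rho 0.75), Cd74 (0.73) and Lrrk1 (0.71). Without WT_induced replicate 6 they were Batf3 (0.76), Ptpn13 (0.72) and Olfml2a (0.70). For Itgax they were Gm15784 (0.73), Ms4a7 (0.71) and Trim43c (0.71), and without that library Cacng8 (0.79), Ssbp4 (0.74) and Nptx2 (0.72). For Axl they were Scd2 (0.82), Dll4 (0.80) and Qdpr (0.79), and Slc6a11 (0.88), Scd2 (0.83) and Dll4 (0.81) without it. For Cd68 they were Dchs2 (0.75), Gm6652 (0.71) and Gm16575 (0.71), and for Gpnmb Dcp1a (0.74), Fv1 (0.74) and Mchr1 (0.72). For Cd9 they were Ier3 (0.78), Cpeb2 (0.75) and Zfp280b (0.74), for Cd63 Rpl6 (0.80), Lrrc32 (0.79) and Pard3b (0.78), and for Spp1 Gm7236 (0.80), Hbp1 (0.78) and AW112010 (0.75). For Lgals3 they were Rgs2 (0.74), Otud1 (0.73) and 1700073E17Rik (0.73), and for Cst7 Gm12276 (0.77), Pln (0.76) and Taf4b (0.74).

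Of 30 other genes of the disease-associated programme, 28 were tested. The inductions called 0 of them in WT and 0 in R47H mice, with 25 and 8 of 28 positive, beside 50.9% and 52.7% of all tested genes. Of the 30 genes, 17 were highest in WT_induced replicate 6, and no count of positive genes without that library is given here. In induced mice R47H against WT called Mamdc2 higher, at 1.04 (SE 0.19, edgeR adjusted p = 0.00142), and B2m, the light chain of MHC class I, lower, at -1.23 (SE 0.33, adjusted p = 0.0296), or -0.59 (SE 0.15, adjusted p = 0.0259) without WT_induced replicate 6. Of all tested genes, that comparison called 2.59% higher and 3.22% lower. In control mice R47H against WT called 6 of 28 higher and 0 lower, beside 2.69% higher and 3.04% lower of all tested genes. The 4 with the lowest p were Mamdc2 (1.58, SE 0.20), Igf1, a growth factor (0.38, SE 0.09), Apoe, the main lipoprotein of the brain and a TREM2 ligand (0.26, SE 0.06), and Ctsa, a lysosomal carboxypeptidase (0.20, SE 0.05). Without WT_induced replicate 6, Trem2 (0.30, SE 0.08, edgeR adjusted p = 0.0170) and Cybb (0.76, SE 0.20, adjusted p = 0.0218) were called as well, beside 6.36% of all tested genes. After adjustment for the rRNA-like percentage 2 were called, beside 2.29% of all tested genes. In the same comparison 12 of 16 homeostatic microglia markers were positive and 0 were called.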

How the data were processed

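The deposited values are raw read counts (whole numbers) of each gene in 24 libraries of mouse cortex, beside gene lengths in bases. STAR 2.5.2b, featureCounts 1.5.1 and build mm10 appear in the submitters' processing notes. How strand was set, which annotation release was used and the other counting options: not given in the sources used here. Per the labels' protocols, poly-A RNA went into TruSeq v2 libraries, which do not mark strand. Of the 11 gene IDs, 10 were found in GENCODE vM21, 6 with the same start and end.

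Groups follow the genotype and treatment labels. No label pairs mice or names a batch. Within groups, libraries differed beyond sampling noise (chi-square per degree of freedom 4.60 to 67.8 over 60 pairs). Nothing but the labels says that samples are separate animals. Counts were scaled by TMM, filtered with filterByExpr and tested in a single fit of 4 group means by the robust quasi-likelihood test of edgeR 4.0.16 (R 4.3.3), adjusted over all 19678 tested genes of each comparison. Single members were also compared by exact permutation tests, 44 in all, on log2(CPM + 0.1), of which 4 gave an unadjusted p below 0.05; correlations used 100000 permutations within groups. Alternatives were RLE size factors, library totals, other filters, DESeq2 1.42.0, limma-voom (limma 3.58.1) with and without sample weights, the libraries compared alone, 2 covariates, a threshold of 0.1, other pseudocounts and each library left out. The fit without a filter and without WT_induced replicate 6 was chosen after seeing the data. Promoters are RefSeq windows of GRCm38.p6, found for all 10 symbols. The members, the 14 other gene lists and the tests were chosen with earlier results of these data known. Named genes are all members in every comparison, the called genes of other lists (at most 4 with the lowest p), the 3 genes most like each member, Trem2 and the most abundant gene of a marker list; Cd3d, Ccr2, Cybb, Lyz2, Cd52 and B2m (beside its call) were named after their values were seen.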

Additional observations from a re-analysis of the deposited data

Results flagged for a closer look

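In each group of 6 mice, the gap between the highest or lowest library and its nearest neighbour was compared with the range of the group by Dixon's rule. Over 44 groups (11 gene IDs in 4 groups) 5 values stood apart, where chance gives about 5% of groups. In WT_induced replicate 6, Itgax was at 2.96 CPM, with the next library at 0.382, Clec7a ENSMUSG00000079293 was at 1.57 CPM, with the next at 0.233, Clec7a ENSMUSG00000102040 was at 0.274 CPM, with the next at 0.0518, and Cst7 was at 0.775 CPM, with the next at 0.302. In WT_induced replicate 5, Axl was at 38.0 CPM, below the next library at 43.9.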

How the results depend on the processing

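The number of members called stayed at 0 in 4 of the 5 comparisons under all alternatives that were run. For R47H against WT in induced mice it was 1, Cd68, with a filter at a mean CPM of at least 1. It was also 1, Cd68, with DESeq2 and at an adjusted p below 0.1. Those settings called 7.12%, 7.66% and 9.42% of all genes they tested. The number of members called ran from 0 to 1 when single libraries were left out, beside 875 to 1156 of all genes. The edgeR adjusted p of Cd68 then ran from 0.0283 to 0.136. Of the 55 log2 fold changes, none reversed a called direction or lost a call, since none was called. Leaving out libraries gave 960 values, of which 952 stayed within their error, 3 moved beyond it, all without WT_induced replicate 6, and 5 crossed the threshold. The other alternatives gave 473 values, of which 439 stayed, 31 moved and 3 crossed it. In all, 64 values differed in sign from the one reported. The cause was not tested. Counts over all genes at an adjusted p below 0.05 differed more: for R47H against WT they ran from 795 (library totals) to 1507 (DESeq2) in induced mice and from 451 (rRNA-like covariate) to 1471 (DESeq2) in control mice. With the threshold at 0.1, edgeR called 1853 and 1953 genes in these comparisons. For the inductions in WT and R47H mice and their difference, edgeR called 0 genes, and DESeq2 called 10, 4 and 3. The induction in WT mice reached 69 calls with the homeostatic microglia list as a covariate. With library totals the median log2 fold change of all genes was 0.0942 in the difference of inductions, farthest from 0 of the 5 comparisons (0.00268 with TMM). Library totals changed the split of calls in control mice from 530 higher and 599 lower to 191 and 1142, and in induced mice from 509 and 633 to 507 and 288. The numbers of permutation tests below 0.05 were 4 with pseudocounts of 0.1 and 0.01, 3 with 1, and 4 without WT_induced replicate 6. Low counts limit Cst7 and both Clec7a IDs, which had between 0 and 69 counts per library. No paired analysis was possible because the replicate numbers were given in accession order and no label pairs mice across groups.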
